A study of Homo sapiens with 4 samples.

Results

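The deposited list of Argonaute-bound sites held 211947 regions, and 802 of them formed the set described here: narrow regions of high score on chromosomes 1 to 22 and X. They were chosen by a score of 50 or more and a width of 80 nt or less, and made up 0.379% of the 211635 nuclear regions while holding 6.32% of the summed nuclear score. Argonaute proteins hold a microRNA, a small regulatory RNA, and use its first bases to find messenger RNAs. A microRNA is cut out of a hairpin precursor, so a strong and short Argonaute site can be a place where a microRNA is made as well as a place where one binds. The bases that pair first with a target are called the seed, taken here as bases 2 to 8 from the 5′ end.

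The libraries came from the human HEK293 line, derived from embryonic kidney, by PAR-CLIP, in which cells take up 4-thiouridine, proteins are linked to RNA by long-wave ultraviolet light and the RNA bound to a chosen protein is sequenced. There were 3 AGO1 libraries from cells with stably expressed His/FLAG/HA-tagged protein, given 200 µM 4-thiouridine and precipitated through FLAG, and 1 AGO2 library, given 100 µM and precipitated with an antibody to AGO2. All 4 cultures were labelled for 16 h and crosslinked at 365 nm. The deposited list gave 1 score per region and no value per library, so AGO1 and AGO2 could not be compared, there was no replicate error and the depth was unknown. No source used here says what the score counts. Intervals below are Wilson 95% intervals of a share of regions, cover counting error only, and treat regions as independent, which neighbours are not.

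No annotation of the files' build, hg19, was used here, and most members are therefore given by position. A subset could be given microRNA names because hairpins that lie side by side keep their spacing between genome builds. Groups of regions with a score of 50 or more and a width of at most 100 nt, linked within 10000 nt on 1 strand, were laid against the spacing of 1630 RefSeq microRNA loci of the same chromosome and strand (GRCh38.p14), and a region was placed where at least 80% of it fell on a hairpin. Of 132 such groups with a member, 8 matched 3 or more hairpins at a single place, which placed 24 members. Another 20 groups matched 2 or more hairpins, but not 3 or more at a single place. Of these, 10 did so only at a larger offset between the builds than any of the 8 groups showed, 2 did so at more than 1 place, 1 placed no member, and 7 were named, which placed 15 members. In all 39 members, 4.86% of the set, were placed on 38 hairpins. The settings of this match were revised over several runs after the list and the resulting names had been seen, with known microRNA clusters in mind, so the names are assignments by spacing and not an independent result. Names from 2 hairpins are the less certain ones.

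The placed hairpins fell into seed families, and 23 of the 38 shared at least 1 of 11 seeds with another placed hairpin. These 11 count both arms, so there are fewer families than seeds. The mature sequences of the families that the scores below turn on are shown from RefSeq with the seed in capitals. The let-7 family shared its 5p seed over 5 placed hairpins, and let-7a has the same mature sequence at the 2 of its loci placed here.
hsa-let-7a-5p: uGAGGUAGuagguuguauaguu
hsa-let-7b-5p: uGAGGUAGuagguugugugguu
hsa-let-7c-5p: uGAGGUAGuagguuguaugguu
hsa-let-7e-5p: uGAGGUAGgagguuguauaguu

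The miR-17 family joined hairpins of chromosomes 13 and 7, and the miR-181 family joined 4 hairpins of chromosomes 1 and 9.
hsa-miR-17-5p: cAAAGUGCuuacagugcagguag
hsa-miR-20a-5p: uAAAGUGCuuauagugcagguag
hsa-miR-93-5p: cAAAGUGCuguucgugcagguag
hsa-miR-181a-5p: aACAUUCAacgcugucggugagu
hsa-miR-181b-5p: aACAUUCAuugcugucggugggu

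The miR-15/16 family, the pair miR-25 and miR-92a, and the pair miR-221 and miR-222 completed the families with a high score in at least 1 member.
hsa-miR-15a-5p: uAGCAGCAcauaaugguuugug
hsa-miR-16-5p: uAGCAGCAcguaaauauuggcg
hsa-miR-424-5p: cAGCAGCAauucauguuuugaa
hsa-miR-25-3p: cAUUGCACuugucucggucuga
hsa-miR-92a-3p: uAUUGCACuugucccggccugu
hsa-miR-221-3p: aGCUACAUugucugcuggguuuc
hsa-miR-222-3p: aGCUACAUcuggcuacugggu

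The member of highest score in the whole set lay in the chromosome 13 group (chr13:92002871-92003639, hg19, plus strand), whose spacing fitted the 6 hairpins of the miR-17/92 cluster, a polycistronic precursor known for promoting proliferation. Its region on MIR20A was 63 nt wide and scored 721. The region on MIR17 scored 305 and the one on MIR18A 285. MIR19B1 had 135 and MIR92A1, in a region of only 25 nt, had 57. MIR19A carried a score of 228 in a region of 87 nt, which is wider than the limit and so not a member. Within a single precursor the deposited scores thus ranged from 57 to 721, and the lowest belonged to the narrowest region.

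The related cluster on chromosome 7 (chr7:99691192-99691869, hg19, minus strand) was placed on MIR106B, MIR93 and MIR25. MIR93, whose 5p arm shares its seed with miR-17 and miR-20a, scored 570 in 68 nt. MIR25, whose 3p arm shares its seed with miR-92a, scored 191 in 28 nt. MIR106B scored 409 in 85 nt and was not a member. A further region of this group, at chr7:99691796-99691869 with a score of 96, fell on none of the hairpins. In both clusters the regions on the hairpins of miR-17, miR-20a and miR-93 thus scored higher than those on the hairpins of miR-92a and miR-25. The former were 64, 63 and 68 nt wide and the latter only 25 and 28 nt, so family and width cannot be told apart here. How reads that match several loci were assigned is also unknown, so the order of these scores is uncertain. A score belongs to a region of the hairpin and was not assigned to an arm, so it is not a value of either mature RNA or its seed.

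The let-7 family, known for holding back growth genes in differentiated cells, was placed on chromosomes 9, 19, 21 and 22. MIRLET7B scored 491 and its neighbour MIRLET7A3 254, in regions of 79 and 77 nt. MIRLET7A1 scored 280 in 68 nt. MIRLET7C had 155 and MIRLET7E 117. MIRLET7F1 and MIRLET7D, the companions of MIRLET7A1, scored 171 and 169 in regions of 81 and 95 nt and missed the set by width alone. MIRLET7A1 and MIRLET7A3 make the same mature RNA, and no source used here says how reads that match both loci were assigned, so their separate scores are uncertain.

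The same limit holds for the miR-181 family, in which MIR181A1 and MIR181A2 share a mature sequence, as do MIR181B1 and MIR181B2. It also holds for any other placed hairpin whose mature RNA is made at a further locus not placed here. Which hairpins these are was not tested, so a low score within a cluster may reflect how such reads were assigned. The chromosome 1 pair scored 597 for MIR181A1 and 108 for MIR181B1. On chromosome 9, MIR181A2 scored 177 and MIR181B2 51. In both pairs the region on the miR-181a hairpin had the higher score. On chromosome 9 these regions were 61 nt wide for MIR181A2 and 27 nt for MIR181B2. A further same-strand region lay 2 nt from that of MIR181B2 and is not counted in its score. Other narrow placed regions also had such a neighbour, for example at 3 nt from MIRLET7C and 10 nt from MIR125A. A score is therefore not a total over a hairpin. All 4 miR-181 names rest on matches of 2 hairpins. So do the names MIRLET7A3 with MIRLET7B, MIR99A with MIRLET7C and MIR15A with MIR16-1. The same is true of MIR221 with MIR222 and of MIR425 with MIR191.

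Members of the miR-15/16 family, which is known for restraining the cell cycle, lay closer together. MIR15A scored 226, MIR16-1 155 and MIR424 139. MIR424 stood in a group on chromosome X with MIR503 at 101 and MIR542 at 76. MIR221 and MIR222, a pair known for lowering cell-cycle inhibitors, scored 279 and 277, although their regions were 66 and 55 nt wide.

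The remaining groups were placed on other clusters, among which MIR501 and MIR502 shared a 3p seed. MIR99A and MIR99B shared both the 5p and the 3p seed. MIR182, MIR96 and MIR183, a cluster known from sensory cells, scored 285, 315 and 259, so all 3 lay close together. MIR23B, MIR27B and MIR24-1 scored 150, 105 and 59. MIR99B, MIRLET7E and MIR125A scored 98, 117 and 244. The chromosome X group of MIR188, MIR362, MIR501 and MIR502 stayed between 53 and 66. MIR99A, beside MIRLET7C, scored 98. On chromosome 3 MIR191 scored 51, and MIR425 carried 2 separate members, of 75 and 155, with 5 nt between them.

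**Figure D1:**
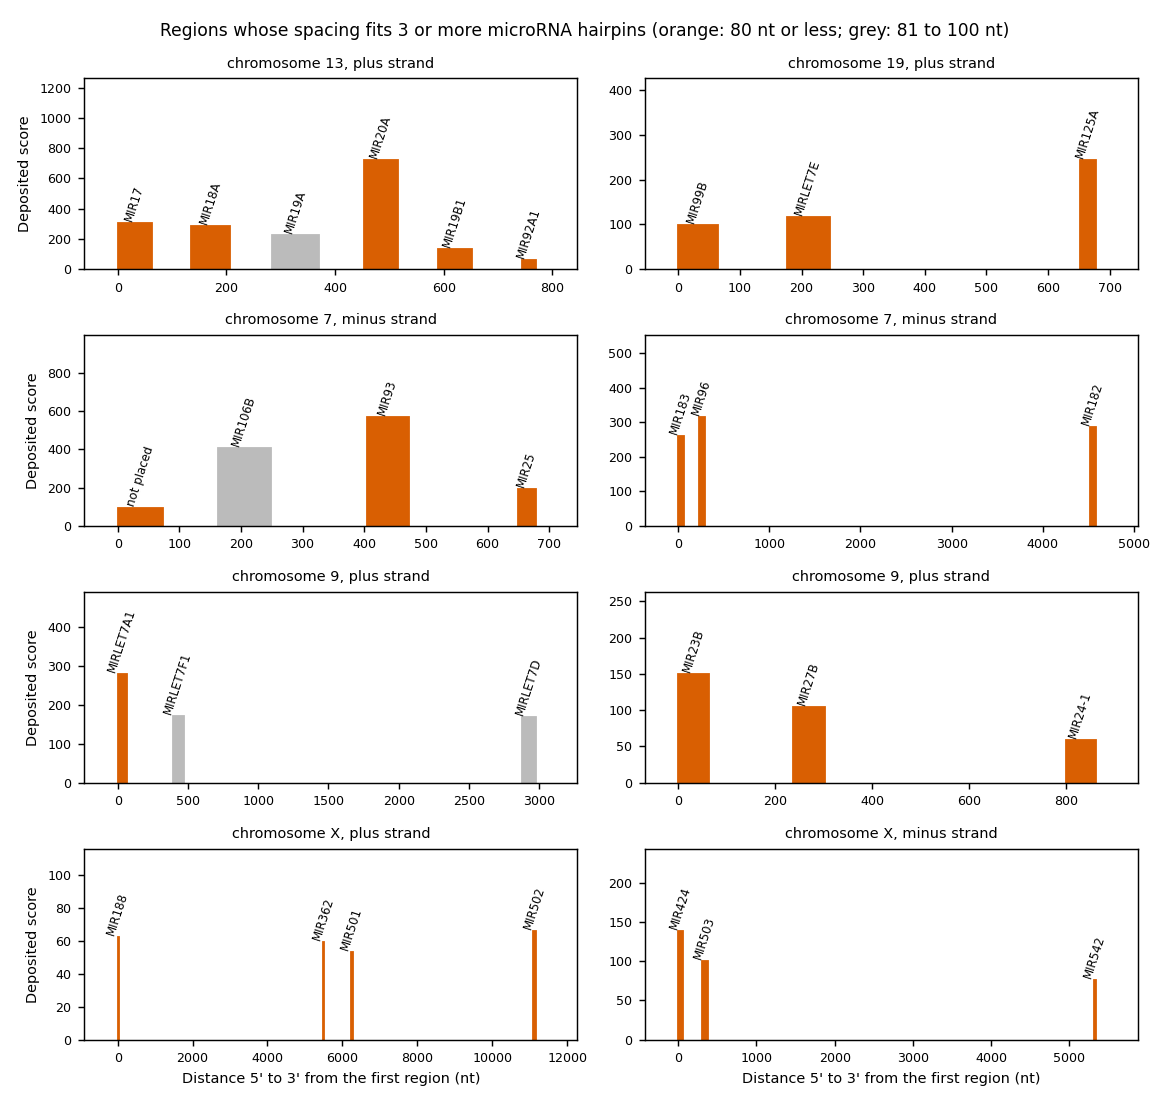
Deposited score (vertical axis, linear, from 0) against distance in nt from the first region, 5′ to 3′, for the 8 groups whose spacing fitted 3 or more hairpins; each bar is 1 region drawn at its own width. Orange bars are members and grey bars are regions of 81 to 100 nt; MIR20A at 721 stands above the other 5 regions of the chromosome 13 group, whereas MIR182, MIR96 and MIR183 lie between 259 and 315.

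Placed members had a median width of 64 nt, against 54 nt for all members, and a median score of 155, with a range from 51 to 721. Their score reached 100 in 27 of 39, against 182 of all 802. Of the 20 members of highest score, 10 were placed and 16 were 60 nt or wider. The match used only groups of 2 or more strong regions, so single hairpins could not be placed, and these figures describe clustered hairpins. They are descriptions, since the score chose the members.

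The 10 unplaced members of the top 20 are given by position on hg19. The highest lay at chr11:62609185-62609239 on the minus strand, was 55 nt wide and scored 555. The next, at chr17:28444099-28444174 on the plus strand, scored 436 in 76 nt and held 98.4% of the summed score of its run, a run being a chain of same-strand regions with gaps of at most 1000 nt. A region of 48 nt at chrX:57934105-57934152 on the minus strand scored 418 in a run of 10 regions. These 3 therefore differed in setting as well as score. The following members, at chr17:57228506-57228570 (minus strand) and chr6:144537714-144537790 (plus strand), both scored 327. The one on chromosome 6 had a second member of score 95 only 5 nt upstream. The region at chrX:73438389-73438445 (minus strand) scored 318, and those at chr6:133138424-133138487 (plus strand) and chr7:27209102-27209169 (minus strand) both scored 312. The last of these 10 were chr15:83424760-83424823 (plus strand) at 303 and chr3:43391849-43391891 (plus strand) at 284. Both strands and 7 chromosomes were represented among these 10.

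Over all 802 members the score was skewed towards its threshold. The median score was 69, the quartiles were 57 and 96, and 248 members scored 50 to 59. A score of 100 or more was reached by 182 and one of 200 or more by 39. Widths ran from 22 to 80 nt, with a median of 54 nt and quartiles of 40 and 65 nt, against a median of 32 nt and a median score of 3 over all nuclear regions. The widths were uneven: 190 members were 60 to 69 nt wide, more than in any other 10-nt step, and 60 were under 30 nt. Width and score were nearly unrelated across members (Spearman's rho 0.06, n = 802 regions of the same pooled libraries, given as a description).

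**Figure D2:**
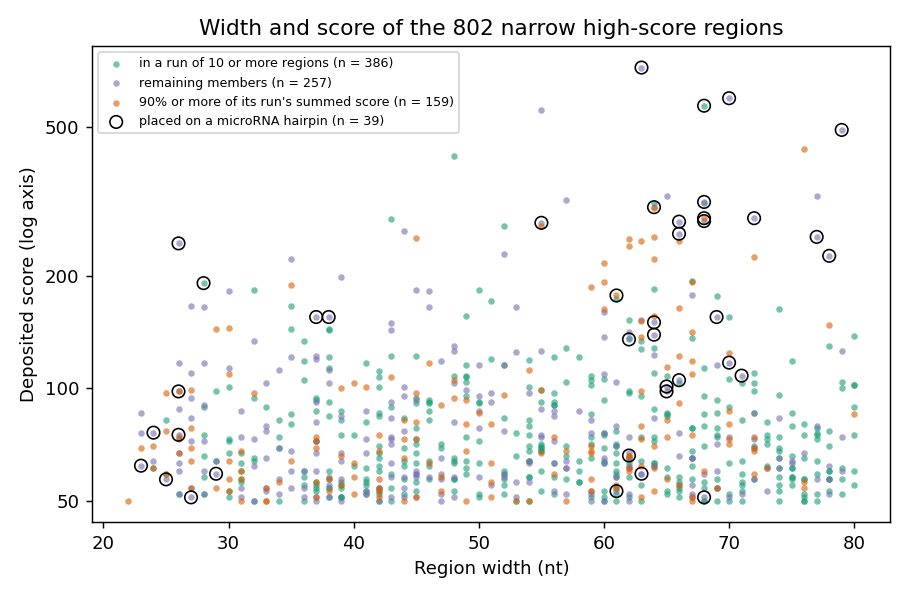
Width in nt (horizontal axis) and deposited score (vertical axis, log scale) of the 802 members, coloured by the run they lie in; open circles mark the 39 placed on a microRNA hairpin. The placed members gather at 60 to 80 nt with scores up to 721, and 11 of them lie at 40 nt or less.

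The thresholds fell in continuous distributions. There were 37 members at a score of 50 and 38 narrow regions at 49. At the width limit, 8 members were 80 nt wide and 15 regions of sufficient score were 81 nt wide. Just inside, the regions at chr9:86673015-86673036, chr11:125496682-125496712 and chr17:27614277-27614308 scored 50. Just outside, those at chr1:52552493-52552547, chr1:108113430-108113475 and chr1:113455821-113455879 scored 49. At the width limit, 3 members of 80 nt scored 55, 60 and 75, and 3 regions of 81 nt scored 52, 54 and 56.

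Members were seldom alone. A same-strand region lay within 100 nt of 77.9% of them (74.9 to 80.7, n = 802). The share was 52.1% (51.9 to 52.3) among narrow nuclear regions of score under 50, 75.4% (74.1 to 76.7) among narrow regions of score 20 to 49 and 85.3% (83.2 to 87.3) among wider regions of score 50 or more. Within 100 nt, members thus had neighbours more often than the mass of narrow regions. At this distance they had them about as often as narrow regions of the next lower scores, whose interval overlaps theirs. Within 10 nt the shares were 35.7% (32.4 to 39.0) for members and 30.8% (29.4 to 32.2) for narrow regions of score 20 to 49, and these intervals do not overlap. At 10000 nt or more from any same-strand region stood 33 members, 4.11% (2.94 to 5.72), against 2.63% (2.20 to 3.16) at score 20 to 49 and 8.63% (8.51 to 8.75) below 50. No test was made of these differences, because regions of 1 pooled list are not replicates.

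**Figure D3:**
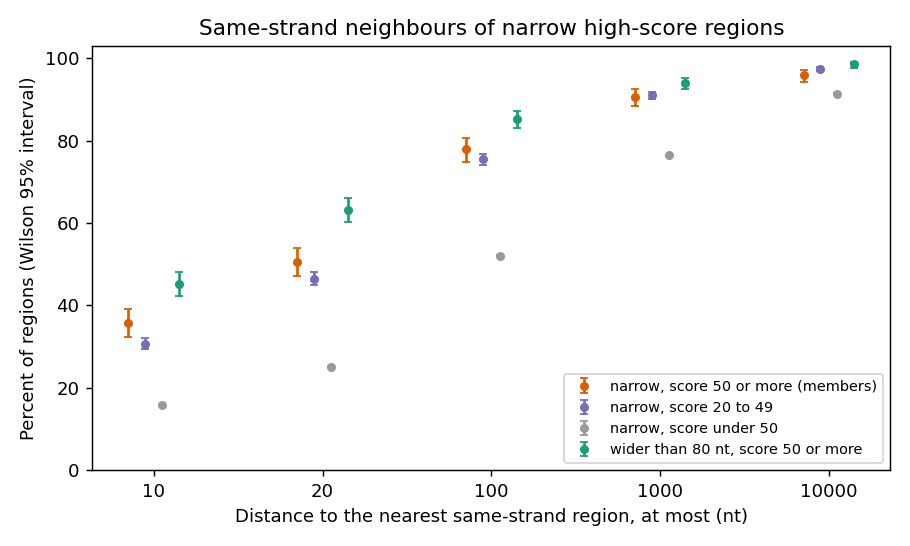
Percent of regions (vertical axis, with Wilson 95% intervals) that have another same-strand region within 10, 20, 100, 1000 or 10000 nt (horizontal axis), for members and 3 comparison sets. Members (orange) lie near narrow regions of score 20 to 49 and below wider regions of high score, with 77.9%, 75.4% and 85.3% at 100 nt.

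By their runs the members split into 3 kinds. A first kind of 159 held 90% or more of the summed score of the run, 75 of them alone in it. A second kind of 386 lay in runs of 10 or more regions without that dominance, spread over 343 runs with a median of 25 regions. The remaining 257 had a median of 4 regions in the run. Runs of 10 or more regions held 48.1% (44.7 to 51.6) of members, against 40.4% of all nuclear regions, 54.8% (53.3 to 56.3) of narrow regions of score 20 to 49 and 74.1% (71.5 to 76.6) of wider regions of high score. The share alone in the run was 9.35% (7.53 to 11.6) for members, 22.8% for all nuclear regions, 9.02% (8.20 to 9.92) at score 20 to 49 and 5.97% (4.74 to 7.50) for wider regions. Median scores of the 3 kinds were 70, 68 and 72. A score of 100 or more was held by 25.2% (19.1 to 32.4) of the first kind, 18.4% (14.8 to 22.6) of the second and 27.6% (22.5 to 33.4) of the third. These scores are a description, since the score chose the members. Of the placed members, 3 were of the first kind, 2 of the second and 34 of the third, as hairpins of 1 cluster share a run.

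Outside the placed groups, the strongest members of the first kind after the chromosome 17 and 15 regions above were chrX:73507128-73507182 (minus strand) at 272, chr19:33668003-33668066 (plus strand) at 254, chr6:27652448-27652492 (minus strand) at 252 and chrX:139006315-139006376 (minus strand) at 250. The last 2 were the only region in their runs. In long runs the strongest unplaced members after those of the top 20 were chr6:43752554-43752605 (plus strand) at 272 and chr17:66039218-66039284 (plus strand) at 193. They held 69.7% and 56.4% of the score of runs of 17 and 11 regions.

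The position of 1 nt that the list gives inside each region was, on average, central: its mean relative place was 0.50 from the 5′ edge (0) to the 3′ edge (1), with 0.50 on the plus and 0.51 on the minus strand. It was never closer than 3 nt to an edge, and its median distance to the nearer edge was 17 nt. In members of 60 to 80 nt its place varied with the kind of member. In placed members it lay in the outer 25% of the region at either end in 20 of 27, 74.1% (55.3 to 86.8). In unplaced members of the first kind it did so in 36 of 59, 61.0% (48.3 to 72.4). In unplaced members of the third kind the count was 23 of 63, 36.5% (25.7 to 48.9). In unplaced members of long runs it was 56 of 171, 32.7% (26.2 to 40.1), and in narrow regions of the same widths with scores of 20 to 49 it was 34.2% (31.7 to 36.7, n = 1332).

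The measure was settled after the values were seen. The first measure tried, within 25 nt of an edge, gave 26 of 27 placed members, 81.4% of unplaced members of the first kind and 66.7% of those in long runs. The second, within 20 nt, gave 23 of 27, 67.8% and 40.9%. The order of these 3 sets was the same under all 3 measures. The intervals of placed and unplaced first-kind members overlap under the measure kept. Placed members had the position on the 5′ side in 25 of 39 and on the 3′ side in 14. MIRLET7B, MIRLET7A3 and MIRLET7A1 had it at bases 10, 13 and 11 of the region, whereas MIR93, MIR23B and MIR221 had it at bases 55, 56 and 54. In members of 22 to 40 nt it was in the outer parts in 3.96% (8 of 202), and within 20 nt of an edge in all 202. A width of at most 40 nt forces the second value. The outer 25% of so short a region spans few bases, and the position was never closer than 3 nt to an edge. These values therefore cannot be compared with those of wider members.

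**Figure D4:**
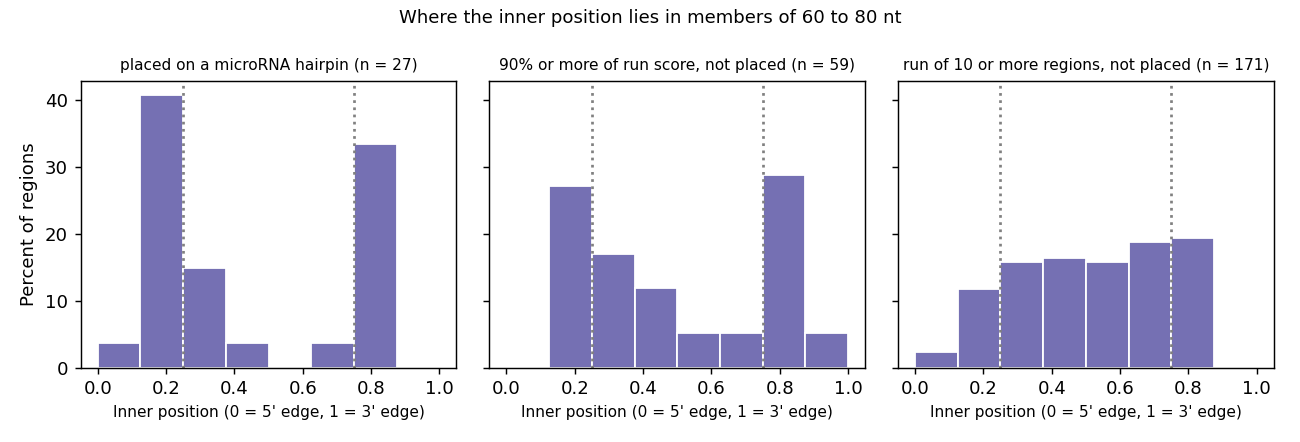
Percent of regions (vertical axis) by relative place of the inner position (horizontal axis, 0 at the 5′ edge and 1 at the 3′ edge) in members of 60 to 80 nt; dotted lines mark the outer 25% at each end. Placed members (n = 27) and unplaced members with 90% or more of the run's score (n = 59) pile up near both edges, with 74.1% and 61.0% in those outer parts, whereas those in long runs (n = 171) are spread, with 32.7%.

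Of the 802 members, 109 had a fellow member on their strand at most 1000 nt away, 13.6% (11.4 to 16.1), in 49 groups, of which 41 were pairs. Of the 8 larger groups, 5 were placed in whole or in part on hairpins: the miR-17/92 group of 5, and the groups of 3 with MIR99B, MIR425, MIR93 and MIR23B. The other 3 were unplaced. A group of 4 on the minus strand of chromosome 20, from chr20:34635712 to 34637626, scored 108, 65, 138 and 108 within a run of 32 regions. A group on the minus strand of chromosome 19, from 6413746 to 6415707, scored 78, 79 and 122 within a run of 41 regions. The third, on the minus strand of chromosome 20 from 5095764 to 5096000, scored 58, 73 and 82 in a run of 9 regions. The scores of these unplaced groups ran from 58 to 138, and those of the members in the 5 other groups from 51 to 721, so the ranges overlap.

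Some members came as close pairs. There were 17 pairs at most 20 nt apart, and their joint span had a median of 95 nt (62 to 126). The closest were chr17:11985225-11985267 with chr17:11985269-11985305, scores 143 and 92, and chr9:139565067-139565092 with chr9:139565094-139565128, scores 88 and 222, each with 1 nt between. The MIR425 pair had a joint span of 68 nt. A further arrangement was a run of exactly 2 regions at most 20 nt apart with at least 1 member, of which there were 47. Their joint span had a median of 75 nt (quartiles 63 and 100.5), and the higher region had a median score of 83 against 14 for the lower. The choice of runs with a member sets the score of the higher region at 50 or more, so this difference follows from the choice.

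A region on the other strand overlapped 10 members, 1.25% (0.68 to 2.28), against 0.42% (0.27 to 0.66) of narrow regions with scores of 20 to 49. The share was 0.31% over all nuclear regions and 0.53% (0.24 to 1.14) among wider regions of score 50 or more. The interval of these wider regions overlaps that of the members. Among the 10 were MIR93, with 62 nt of overlap, MIR181A2 with 38 nt and MIR24-1 with 21 nt. The highest unplaced one was chr7:27209102-27209169, with 22 nt. The strands were otherwise even, with 406 members on plus and 396 on minus.

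Chromosome 6 had the most members for its number of regions, 6.08 per 1000 regions (4.82 to 7.68), against 3.79 over all 23 chromosomes. Chromosomes X (5.47, 4.00 to 7.47) and 17 (5.43, 4.24 to 6.93) followed, and chromosome 4 had the fewest (2.06, 1.27 to 3.35). On chromosome 6, 26 of the 70 members lay between 26 and 28 Mb, a stretch that held 598 of the 11504 regions of the chromosome. The high rate of chromosome 6 thus rests in part on this stretch, which is known for its histone and transfer RNA genes. Its members lay on both strands (14 plus, 12 minus). The highest of these scored 252 and their median width was 52.5 nt. Whether they lie on such genes could not be read without an annotation of hg19. On chromosome 13, 5 of the 18 members were the miR-17/92 regions.

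**Figure D5:**
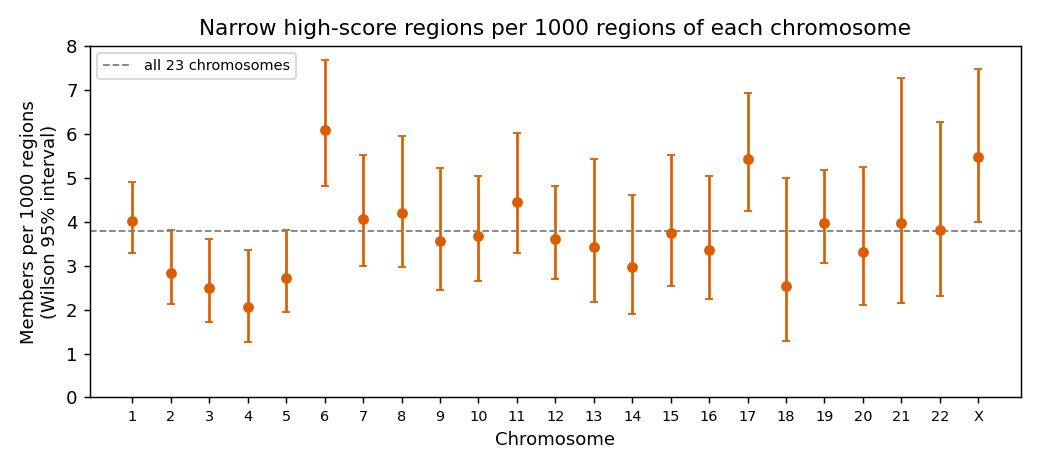
Members per 1000 regions of each chromosome (vertical axis, with Wilson 95% intervals); the dashed line is the value over all 23 chromosomes, 3.79. Chromosomes 6, X and 17 have intervals above the line, and those of chromosomes 3 and 4 lie below it.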

How the data were processed

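The score of each region is used as the authors deposited it, a whole number from 1 to 1000. The starts, ends and inner positions are genomic coordinates as deposited on hg19 per the file headers, and are printed counting from 1. Per the file headers the list carries a filter name with the value 0.05, and per the submitters' processing notes BWA 0.5.8c was used. No source used here names the tool that found the regions, what the filter means or which libraries were pooled.

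Members and lists were chosen with earlier results of these data known. Positions are named by a fixed rule (the 20 highest scores, regions next to each threshold, groups of 3 or more within 1000 nt and the closest pairs). The microRNA names lie outside that rule, which allowed names only through an annotation of the build or a sequence match. They come from spacing alone, and no coordinate was converted. The widths, overlap, offset bound and use of mature-arm spans (68 of 1630 loci) were changed between runs, partly because earlier settings put regions on hairpins known to lie elsewhere on the chromosome. A reading of hairpin arms was tried and dropped, because the allowed shift left most arms unsure. The kinds of run, the width classes and the edge measures were also set after values were seen. Python 3.11.15 with pandas 2.3.3 and numpy 2.4.6 was used, and the scripts were tested on simulated regions. Regions have no replicates, so no test between groups was made.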

Additional observations from a re-analysis of the deposited data

How the results depend on the processing

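Over 10 results and 39 alternatives, 24 values stayed within the main value's interval, or within 1.5 times a count, and 15 did not. The number of members went from 802 to 2318 at a score minimum of 30, to 182 at 100 and to 502 at a width maximum of 60 nt. The share with another member within 1000 nt was 9.56% at a width maximum of 60 nt, 17.3% at 100 nt, and 23.9% within 10000 nt. The share with a region within 100 nt was 71.4% at a score minimum of 100, and 66.3% when only regions of score 3 or more counted as neighbours, which also put isolated members at 6.36%. An overlap of at least 50% of the member left 0.623% with a region on the other strand.

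The following 21 alternatives were chosen after seeing the data. Fits of 3 or more hairpins only placed 24 members in place of 39. Other settings placed 31 to 49, but counts hide changes of name: with no bound on the offset, 22 groups and 45 members were named, 37 of them as in the text, the MIR221 and MIR222 pair was lost, and the added pairs included some at hairpins known to lie elsewhere on the chromosome, such as MIR3671 with MIR101-1. The settings of the first run named 19 groups and 38 members, 32 as in the text. When regions had to lie wholly on the hairpin, 32 members were placed, 30 as in the text. For the inner position, 25 nt from an edge gave 96.3% of placed members, 81.4% of unplaced members with 90% or more of the run's score and 66.7% of those in long runs, and 20 nt gave 40.9% in long runs.

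The share of members on annotated hairpins and its 3 alternatives were not run, because no annotation of hg19 was used here. No paired analysis was possible because each region has 1 value and none per library. Unknown depth, a pooled score and reads shared by near-identical loci limit every score.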
